A study of Mus musculus with 6 samples.

Results

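The *Ms4a* tetraspan cluster was described in resting mouse bone-marrow-derived macrophages (BMDMs) with and without CITED2. It was represented by 9 genes, *Ms4a4a*, *Ms4a4b*, *Ms4a4c*, *Ms4a6b*, *Ms4a6c*, *Ms4a6d*, *Ms4a7*, *Ms4a8a* and *Ms4a14*, taken by gene name from 22248 listed genes. The set was chosen by the difference in FPKM between CITED2-deficient and control BMDMs, which was already known. That difference is given for these genes as a description with no test. Levels within each group, other genes and sequence features were not used by that choice. The gene lists were still chosen with earlier results of these data known, and the motifs and printed sequences after the values were seen. The values are FPKM (fragments scaled by transcript length and library size), a level per length. All 9 genes were found, and 8 of them averaged 1 FPKM or more, the filter for the test.

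MS4A proteins are small membrane proteins that cross the lipid bilayer repeatedly, with both ends inside the cell. The best known are CD20 on B cells, encoded by *Ms4a1*, and the β chain of the high-affinity IgE receptor on mast cells, encoded by *Ms4a2*. They sit beside other receptors and adjust their signaling or traffic, and in the mouse their genes lie next to each other on chromosome 19. Several are made mainly by macrophages and microglia, and some are known to be induced by interferon or by alternative activation.

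RNA was measured in 6 libraries of unstimulated BMDMs grown in macrophage colony-stimulating factor, with 3 per genotype. Controls were *Lyz2*cre mice, and the mice whose macrophages lacked CITED2 were *Cited2* fl/fl:*Lyz2*cre. Both genotypes carried Cre in the *Lyz2* locus, which acts in monocytes, macrophages and neutrophils, and the floxed *Cited2* alleles were carried by the CITED2-deficient mice, so an effect of the floxed alleles other than deletion cannot be told apart from loss of CITED2. *Lyz2* itself, the locus that drives Cre, was at 30.8, 30.6 and 32.5 FPKM in control and 9.39, 9.82 and 10.0 FPKM in CITED2-deficient libraries (log2 difference -1.59, limma adjusted p = 2.33e-08), and whether Cre acted equally in both genotypes was not tested. All mice were C57BL/6, labelled as postnatal week 10, although the culture protocol gives a slightly younger age. The study asked whether loss of CITED2, a transcriptional co-regulator, is enough to raise inflammatory genes in resting macrophages. The labels do not say that each library came from its own mouse, so p-values measure the spread between these libraries.

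The libraries held 17289286 to 18952077 fragments in control BMDMs and 22583995 to 26100410 in CITED2-deficient BMDMs. *Cited2* was at 71.7, 79.3 and 75.5 FPKM in control and at 9.27, 7.22 and 7.53 FPKM in CITED2-deficient libraries, a log2 difference of -3.09 (SE 0.08, limma adjusted p = 6.57e-09). The macrophage gene *Adgre1*, which encodes F4/80, was at 2214 ± 20.9 FPKM (SD, n = 3) in control and 1776 ± 34.9 in CITED2-deficient BMDMs. Of the CITED2-deficient libraries, replicate 1 stood apart on stromal genes, with a summed level of 731 FPKM over 10 markers against 267 and 270 in the other 2 and 69.6 to 84.1 in control libraries. Over all 11687 genes tested, the median log2 difference was -0.10.

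*Ms4a4c* carried the largest difference of the cluster. It encodes a member known from monocytes and activated lymphocytes, and it lies at chr19:11404770-11427246 on the plus strand. Its level was 7.51, 7.08 and 6.00 FPKM in the 3 control libraries and 144, 165 and 152 FPKM in the 3 CITED2-deficient libraries. Every CITED2-deficient library was far above every control library, and the means of 6.86 ± 0.776 and 153 ± 10.6 FPKM (SD, n = 3) were 22.3-fold apart. On the log2(FPKM + 1) scale the difference was 4.30 (SE 0.08), a difference that ranked at place 3 of 11687 tested genes. It rested on 105 to 131 fragments per control library and 3368 to 3650 per CITED2-deficient library. Among all listed genes *Ms4a4c* went from place 8057 by mean FPKM in control BMDMs to place 704 in CITED2-deficient BMDMs.

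Its nearest relative in sequence, *Ms4a4b*, stayed at a low level. *Ms4a4b*, at chr19:11443553-11467055 on the plus strand, is known mainly from T cells and NK cells, where it modulates activation. It was at 1.10, 0.966 and 1.01 FPKM in control and 1.74, 2.25 and 2.56 FPKM in CITED2-deficient libraries, so the groups did not overlap but both were close to the lower limit of the test. The log2 difference was 0.64 (SE 0.14) and the ratio of the means 2.13. The coding sequences of *Ms4a4b* and *Ms4a4c* were 91.8% identical over 681 aligned bases, and their transcripts shared a run of 127 identical bases. The sources used here give neither the read length nor the handling of reads that map to several genes, so the division of fragments between these paralogs is uncertain.

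The windows of 250 bases before the RefSeq starts were compared because *Ms4a4b* and *Ms4a4c* share most of that sequence while their levels differ widely. They were 80.1% identical over 231 aligned bases (RefSeq, GRCm38.p6, the build of mm10). The *Ms4a4c* window is chr19:11407411-11407660 and the printed part of the *Ms4a4b* window is chr19:11443308-11443552, both on the plus strand and written 5′ to 3′ up to the start or the annotated exon. The *Ms4a4c* window lies inside the annotated gene, whose most upstream transcript starts earlier. Capitals mark the longest run the pair shares, 20 bases. The *Ms4a4a* window, chr19:11375238-11375487 on the plus strand, is shown beside them as the gene of the same subfamily with overlapping groups, and it has no capitals because no motif searched was found in it.
Ms4a4c: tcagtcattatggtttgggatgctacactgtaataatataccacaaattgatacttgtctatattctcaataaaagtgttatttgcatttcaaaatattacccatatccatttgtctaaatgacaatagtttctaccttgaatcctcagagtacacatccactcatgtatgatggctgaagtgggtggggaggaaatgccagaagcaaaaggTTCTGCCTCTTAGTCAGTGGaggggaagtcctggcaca
Ms4a4b: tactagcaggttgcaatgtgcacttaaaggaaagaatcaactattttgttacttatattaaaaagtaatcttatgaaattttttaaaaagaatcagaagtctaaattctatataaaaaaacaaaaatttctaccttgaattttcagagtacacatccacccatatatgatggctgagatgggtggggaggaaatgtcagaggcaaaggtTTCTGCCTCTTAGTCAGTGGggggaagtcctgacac
Ms4a4a: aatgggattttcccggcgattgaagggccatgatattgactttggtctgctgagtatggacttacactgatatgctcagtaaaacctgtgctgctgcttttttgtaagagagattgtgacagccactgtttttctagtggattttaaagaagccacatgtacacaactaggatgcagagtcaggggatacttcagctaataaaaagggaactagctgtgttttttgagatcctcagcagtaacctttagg

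*Ms4a4a* encodes a surface protein of alternatively activated macrophages that is known to associate with the β-glucan receptor dectin-1, and lies at chr19:11375523-11392790 on the plus strand. Its level was 98.6, 89.7 and 93.8 FPKM in control and 78.5, 99.2 and 90.4 FPKM in CITED2-deficient libraries. The groups overlapped, with means of 94.0 ± 4.47 and 89.4 ± 10.4 FPKM (SD, n = 3) and a log2 difference of -0.08 (SE 0.08). The direction was not settled, since the difference was 0.02 with median-ratio scaling and 0.01 without CITED2-deficient replicate 1. In this it was unlike *Ms4a4c*, although the pair is 68.8% identical over 648 aligned coding bases.

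**Figure D1:**
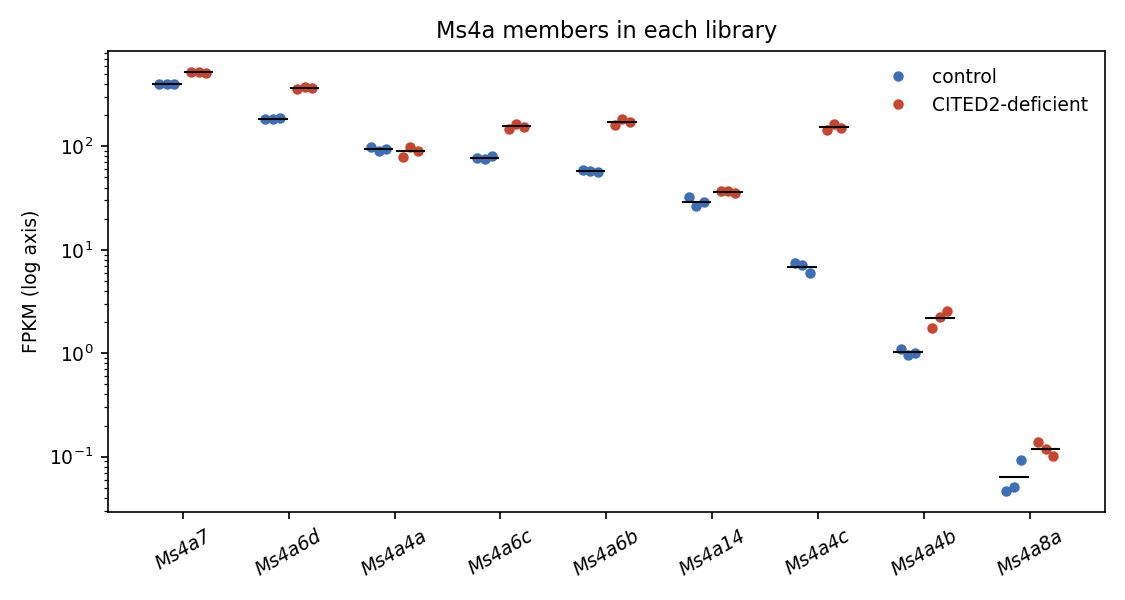
FPKM on a log axis for each of the 9 *Ms4a* genes in the 3 control and 3 CITED2-deficient libraries, with 1 point per library and a bar at each group mean. *Ms4a4c* moves from 6.00 to 7.51 FPKM up to 144 to 165 FPKM, while the points of *Ms4a4a* lie on top of each other.

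The *Ms4a6* genes were each higher in CITED2-deficient BMDMs, with ratios of the mean FPKM of 1.99 to 2.96. *Ms4a6b*, at chr19:11516512-11531256 on the plus strand, was at 59.5, 57.8 and 57.0 FPKM in control and 162, 182 and 170 FPKM in CITED2-deficient libraries. Its groups were well separated, with a log2 difference of 1.55 (SE 0.05) and a ratio of means of 2.96. *Ms4a6b* is also known in T cells and regulatory T cells, but here its level was that of a well-expressed macrophage gene, at place 2060 in control and 621 in CITED2-deficient BMDMs.

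*Ms4a6c*, at chr19:11469366-11482192 on the plus strand, was at 78.0, 74.8 and 80.3 FPKM in control and 148, 166 and 155 FPKM in CITED2-deficient libraries, a log2 difference of 1.00 (SE 0.05). *Ms4a6d*, at chr19:11586604-11604849 on the minus strand, was at 183, 184 and 186 FPKM in control and 357, 379 and 364 FPKM in CITED2-deficient libraries, a log2 difference of 0.99 (SE 0.03). Neither gene had any overlap between the groups, which went from means of 77.7 ± 2.73 to 156 ± 9.16 FPKM for *Ms4a6c* and from 184 ± 1.73 to 367 ± 11.1 FPKM for *Ms4a6d* (SD, n = 3). *Ms4a6d* encodes a macrophage protein reported to bind the complement receptor VSIG4. The coding sequences of *Ms4a6b* and *Ms4a6c* were 86.3% identical, those of *Ms4a6b* and *Ms4a6d* 81.8%, and those of *Ms4a6c* and *Ms4a6d* 79.7%, with shared transcript runs of 96, 81 and 44 bases, so here too fragments could have been divided between paralogs.

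The windows before *Ms4a6b* and *Ms4a6c* had the highest percent identity of the pairs, 85.1% over 175 aligned bases with a shared run of 48. That alignment held 149 identical bases and 150 gap bases. The *Ms4a4b* and *Ms4a4c* windows shared more, with 185 identical bases and 38 gap bases. The *Ms4a6b* and *Ms4a6c* windows are shown because both hold the same short match to GAAANNGAA, a shortened form of the sequence read by interferon regulatory factors. The match GAAAGTGAA lies 206 to 198 bases before the start of *Ms4a6b* and 133 to 125 bases before that of *Ms4a6c*. *Ms4a6c* also holds AGGAAGT, the core read by ETS factors such as PU.1, 17 to 11 bases before its start. The printed stretches are chr19:11518309-11518452 for *Ms4a6b*, which leaves out 106 bases that lie in an annotated exon, and chr19:11469118-11469365 for *Ms4a6c*, both on the plus strand, from RefSeq GRCm38.p6. Capitals mark the matches.
Ms4a6b: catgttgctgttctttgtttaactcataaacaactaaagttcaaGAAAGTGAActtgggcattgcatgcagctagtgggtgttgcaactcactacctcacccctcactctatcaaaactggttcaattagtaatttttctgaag
Ms4a6c: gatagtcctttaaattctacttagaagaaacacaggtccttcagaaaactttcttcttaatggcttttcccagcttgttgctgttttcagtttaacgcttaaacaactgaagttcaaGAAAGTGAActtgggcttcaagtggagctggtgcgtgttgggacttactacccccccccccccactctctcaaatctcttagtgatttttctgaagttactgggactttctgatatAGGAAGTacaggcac

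RefSeq windows were held for 8 of the 9 genes, *Ms4a6d* being the exception, and 5 motifs were searched on both strands in them and in 32851 promoter windows of the same length. *Ms4a7* had 2 windows, so 9 windows stood for the 8 genes. GAAANNGAA was present in 4 of the 9 windows, those of *Ms4a6b* and *Ms4a6c* and both of *Ms4a7*, and in 7.13% of all windows. By gene that was 3 of the 8. The *Ms4a6b* and *Ms4a6c* windows hold the same match and were 85.1% identical over 175 aligned bases. They are therefore not independent, and nothing is read from these counts. AGGAAGT was present in 2 of the 9, those of *Ms4a6b* and *Ms4a6c*, and in 7.69% of all. Its matches in *Ms4a6b*, 86 to 80 and 43 to 37 bases before the RefSeq start, lie in an annotated exon of that gene. The whole *Ms4a6b* window and the *Ms4a7* window at chr19:11334696-11334945 lie inside the annotated genes, as that of *Ms4a4c* does. GAAANNGAA followed by a further A, the longer form, was in 0 of 9 and 2.98% of all windows. The STAT letters TTCNNNGAA were in 0 of 9 and 7.02%, and GAGGAAGT, which contains the shorter ETS letters, was in 0 of 9 and 2.44%. The window before *Ms4a4c*, the gene with the largest difference, held none of the 5.

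*Ms4a7* was the most abundant gene of the cluster in both genotypes. It encodes a tetraspan protein typical of macrophages, including those at the borders of the brain, and lies at chr19:11321039-11336146 on the minus strand. It was at 402, 403 and 402 FPKM in control and 519, 527 and 515 FPKM in CITED2-deficient libraries. The step was small but the replicates were tight, with means of 403 ± 0.415 and 520 ± 6.04 FPKM (SD, n = 3) and a log2 difference of 0.37 (SE 0.02). *Ms4a14*, a long gene of the family with 3699 coding bases, lies beside it at chr19:11301249-11314454 on the minus strand and was at 32.1, 26.8 and 28.7 FPKM in control and 37.3, 37.0 and 35.2 FPKM in CITED2-deficient libraries. Its log2 difference was 0.31 (SE 0.06), and every CITED2-deficient library was above every control library.

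*Ms4a8a*, at chr19:11067471-11081102 on the minus strand, is known from epithelium and from macrophages under combined anti-inflammatory signals. It was at 0.0469, 0.0513 and 0.0936 FPKM in control and 0.140, 0.118 and 0.102 FPKM in CITED2-deficient libraries. These levels stood for 1, 1 and 2 fragments and 4, 3 and 3 fragments, so no difference could be resolved at this depth.

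With a threshold of 0.05 on the adjusted p, 7 of the 8 genes that passed the filter were past it in the higher direction, all but *Ms4a4a*, where 16.7% of all tested genes were, and 51.3% were past it in either direction. The FPKM of the groups did not overlap, in the higher direction, for the same 7 of the 8, against 19.0% of all tested genes. In the lower direction 40.9% of tested genes did not overlap. The groups of *Ms4a8a*, which was not tested, also did not overlap, but at a few fragments per library. The comparison itself chose the genes, and nothing is read from these counts. Just inside the filter of 1 FPKM was *Ms4a4b*, with group means of 1.03 and 2.18 FPKM, and outside it was *Ms4a8a*.

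**Figure D2:**
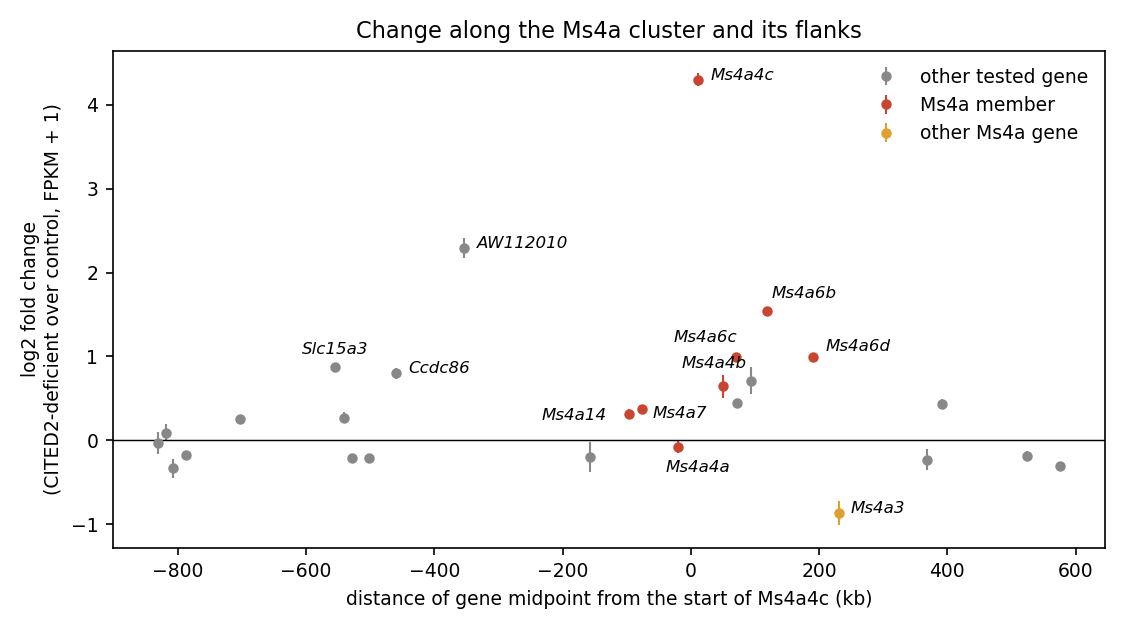
Log2 difference between CITED2-deficient and control BMDMs of the genes of the *Ms4a* region, against the distance in kb of each gene's midpoint from the start of *Ms4a4c* along chromosome 19, with error bars of 1 SE. Red points are the *Ms4a* genes of the set, the yellow point is *Ms4a3* and gray points are other tested genes. *Ms4a4c* stands at 4.30 and the others lie between -0.87 and 2.29.

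Within each genotype the genes formed a clear order of levels per length. In control BMDMs it ran *Ms4a7*, *Ms4a6d*, *Ms4a4a*, *Ms4a6c*, *Ms4a6b*, *Ms4a14*, *Ms4a4c*, *Ms4a4b* and *Ms4a8a*, and no neighbors in that order overlapped over the 3 libraries. In CITED2-deficient BMDMs it ran *Ms4a7*, *Ms4a6d*, *Ms4a6b*, *Ms4a6c*, *Ms4a4c*, *Ms4a4a*, *Ms4a14*, *Ms4a4b* and *Ms4a8a*. There the range of *Ms4a6b* over the 3 libraries overlapped with that of *Ms4a6c*, and that of *Ms4a6c* with that of *Ms4a4c*. Within each library the order was still *Ms4a6b*, *Ms4a6c*, *Ms4a4c*. Levels were 162, 148 and 144 FPKM in replicate 1, 182, 166 and 165 in replicate 2, and 170, 155 and 152 in replicate 3. *Ms4a4a* stood at place 3 in control and at place 6 in CITED2-deficient BMDMs while its own groups overlapped.

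The sum over all 13 listed *Ms4a* genes was 864, 847 and 857 FPKM in control and 1448, 1559 and 1486 FPKM in CITED2-deficient libraries. *Ms4a7* made up 47.0% ± 0.525 of that sum in control and 34.8% ± 1.01 in CITED2-deficient BMDMs (SD, n = 3). *Ms4a4c* made up 0.802% ± 0.0897 and 10.2% ± 0.321. The share of *Ms4a4a* went from 11.0% ± 0.413 to 5.96% ± 0.484, and that of *Ms4a6b* from 6.78% ± 0.125 to 11.5% ± 0.260. *Ms4a6d* held 21.5% ± 0.319 and 24.5% ± 0.178. These shares follow from the same values as the differences above.

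**Figure D3:**
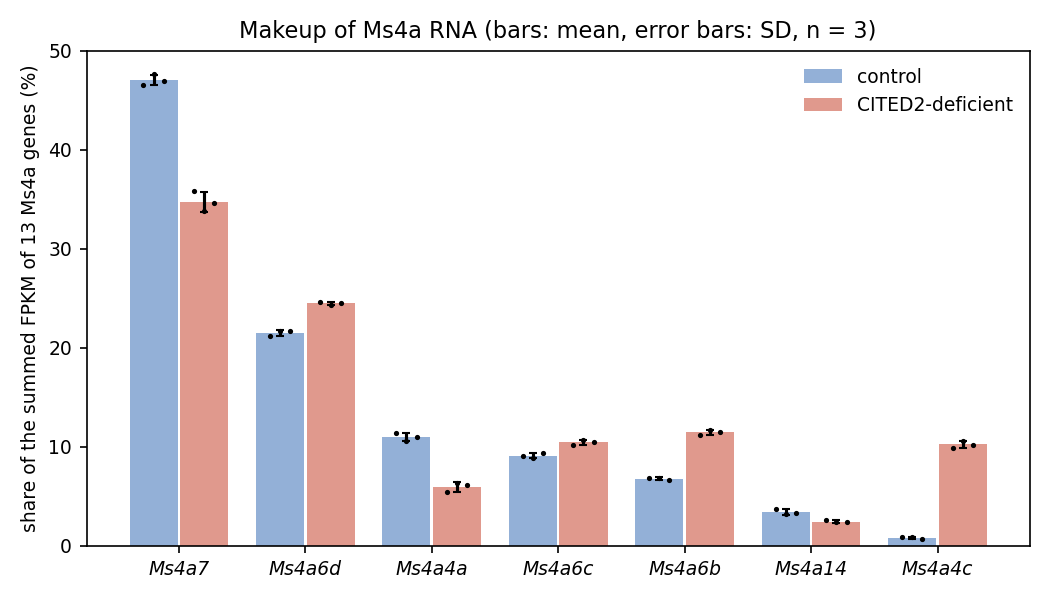
Share in percent of the summed FPKM of all 13 listed *Ms4a* genes held by each of the 7 most abundant, as the mean of 3 libraries per genotype (bars) with the SD (error bars) and 1 point per library. *Ms4a7* takes 47.0% of the control mean and 34.8% of the CITED2-deficient mean, and *Ms4a4c* 0.802% and 10.2%.

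The 3 genes outside the cluster whose profile over the 6 libraries was nearest to *Ms4a4c* were *Ly6a*, *Ifit1bl1* and *Ifi44*, at root mean square distances of 0.136, 0.144 and 0.182 on the log2 scale. *Ly6a*, which encodes the surface protein Sca-1, was at 41.4, 42.8 and 44.9 FPKM in control and 877, 873 and 909 FPKM in CITED2-deficient libraries. Nearest to *Ms4a7* were *B430306N03Rik* at 0.014, *Ddx24* at 0.015 and *Diaph1* at 0.020. Nearest to *Ms4a4a* were *Mad2l1bp* at 0.025, *Zfp74* at 0.029 and *Efcab7* at 0.030.

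The other *Ms4a* genes listed were *Ms4a1*, *Ms4a2*, *Ms4a3* and *Ms4a4d*. *Ms4a3*, at chr19:11629496-11640851 on the minus strand, marks precursors of granulocytes and monocytes, and it was the only 1 of the 4 above the filter. It was at 1.69, 2.40 and 2.05 FPKM in control and 0.509, 0.764 and 0.727 FPKM in CITED2-deficient libraries. It fell by 0.87 on the log2 scale (SE 0.15, limma adjusted p = 0.00102), with no overlap and a ratio of the means of 0.326, while 34.6% of all tested genes were called lower. The added pseudocount narrows the difference at these levels, which was -1.49 with a pseudocount of 0.1 and -1.60 with limma-voom on recovered fragments. In bulk RNA, fewer precursor cells and less RNA per cell cannot be told apart. Of the 11 tested markers of neutrophils or their precursors, *Ms4a3* among them, 8 fell and 2 rose. Their median log2 difference of -0.87 is the value of *Ms4a3* itself, so the 2 are not separate observations. The summed level of these markers was 749 to 818 FPKM in control and 667 to 785 FPKM in CITED2-deficient libraries. The 2 that rose were *Ltf*, from 94.3 ± 4.77 to 177 ± 13.2 FPKM (SD, n = 3), a rise of 0.90, and *Mmp8*, by 0.70. *Mpo*, *Prtn3* and *Elane*, which encode proteins of the primary granules, had log2 differences of -2.54, -2.12 and -2.08. The part of these markers in the level of *Ms4a3* was not tested.

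*Ms4a4d*, at chr19:11536801-11558467 on the plus strand, lies between *Ms4a6b* and *Ms4a6d*. It was at 0.140, 0.0382 and 0 FPKM in control and 1.14, 0.878 and 0.861 FPKM in CITED2-deficient libraries, or 4, 1 and 0 fragments against 44, 30 and 34. It was called higher when all 22248 genes were fitted (limma adjusted p = 0.000543), where 26.2% of genes were called in either direction. Its coding sequence was 87.9% identical to that of *Ms4a4c*, with a shared transcript run of 57 bases, so fragments of *Ms4a4c* could have been counted for it. *Ms4a1* had 5 to 16 fragments per control library and 12 to 16 per CITED2-deficient library, and *Ms4a2* had 1 to 6 and 0 to 1, and neither was called.

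The region around the cluster was examined to see whether the differences extend to genes that are not named *Ms4a*. The 9 genes span 537 kb, and within 500 kb of that span 38 further genes not named *Ms4a* were listed, 18 of them tested. Of these 8 rose, 6 fell and 4 did not pass, with a median log2 difference of 0.03. The upward count of 8 in 18 stands beside 16.7% of all tested genes, and the downward count of 6 in 18 beside 34.6%. With median-ratio scaling 8 rose and 2 fell. Inside the span 2 of 3 tested genes rose, and in the flanks 6 of 15 rose and 6 fell. The 2 inside the span were *Gm8369*, which resembles *Ms4a4c*, and *BE692007*, which overlaps *Ms4a6c*. They therefore do not show whether the differences extend beyond the family.

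*AW112010*, a noncoding RNA gene known to be induced in activated macrophages, lies 11.7 kb outside the span at chr19:11047612-11055808 on the minus strand. It was at 5.43, 5.48 and 6.85 FPKM in control and 27.7, 38.0 and 33.2 FPKM in CITED2-deficient libraries, a rise of 2.29 (SE 0.12, limma adjusted p = 4.74e-07) that was the largest among the neighbors. *Slc15a3*, which encodes an endolysosomal transporter of histidine and muramyl dipeptide, was at 123, 127 and 125 FPKM in control and 223, 233 and 233 FPKM in CITED2-deficient libraries (adjusted p = 3.78e-08, limma). *Ccdc86*, a nucleolar protein gene, rose by 0.80 and *Stx3*, a syntaxin of vesicle fusion, by 0.44, with no overlap in either. *Vps37c* and *Tmem132a* rose by 0.25 and 0.27.

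Inside the span, *Gm8369* lies between *Ms4a6c* and *Ms4a6b* and resembles *Ms4a4c*, 90.9% over 372 aligned coding bases. It was at 1.60, 1.03 and 1.40 FPKM in control and 2.11, 3.17 and 3.31 FPKM in CITED2-deficient libraries, a rise of 0.71 (SE 0.16, limma adjusted p = 0.00528). *BE692007*, a noncoding transcript, overlaps *Ms4a6c* on the opposite strand and rose by 0.45 (SE 0.05, limma adjusted p = 0.000116). The libraries keep the strand, but the sources used here do not say whether the counting used it, so its reads and those of *Ms4a6c* may not be separated. Among the neighbors that fell, *Osbp*, which encodes an oxysterol-binding protein, fell by 0.30, *Prpf19* by 0.21, *Tmem109* by 0.20, *Ddb1* by 0.18 and *Patl1* by 0.18, and *Tkfc* also fell (adjusted p = 0.0393, limma). Under median-ratio scaling only *Osbp* and *Prpf19* of these 6 stayed past the threshold. The call for *Tkfc* was also lost when replicate 1 or 2 of the controls, or replicate 1 or 3 of the CITED2-deficient libraries, was left out, with log2 differences of -0.35 to -0.25. That for *Patl1* was lost when replicate 1 or 3 of either genotype was left out, with differences of -0.18 to -0.16.

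Genes of proteins known to bind, signal beside or be shaped by MS4A proteins included some that rose and some that fell. Of 12 tested genes on this list of 13, 4 rose, 4 fell and 4 did not pass, with a median log2 difference of 0.01, where 16.7% of all tested genes rose and 34.6% fell. *Fcgr4* rose by 1.79 and *Fcgr1* by 1.48, both Fc receptors for IgG, and *Cd274*, which encodes PD-L1, rose by 1.52. *Clec7a*, the gene for dectin-1, was at 193 ± 9.37 FPKM in control and 330 ± 12.3 FPKM in CITED2-deficient BMDMs (SD, n = 3), a rise of 0.77 (SE 0.04, limma adjusted p = 7.12e-07), where *Ms4a4a* had overlapping groups.

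*Vsig4*, the gene for the receptor that MS4A6D is reported to bind, was at 1.49 ± 0.312 FPKM in control and 0.680 ± 0.428 FPKM in CITED2-deficient BMDMs (SD, n = 3), a fall of 0.59 (SE 0.21, limma adjusted p = 0.0388), while *Ms4a6d* was at the higher level given above. That call was lost without any 1 of control replicate 1, CITED2-deficient replicate 1 or CITED2-deficient replicate 3, where the log2 difference was -0.60, -0.61 and -0.39 in turn, and also with median-ratio scaling at -0.54, with a pseudocount of 0.1 at -1.18 and with no filter at -0.59. *Fcgr3* fell by 0.49 and *Tyrobp*, the adaptor DAP12, by 0.23, and *Trem2* fell by 0.15, a call that was lost with median-ratio scaling and with quantile normalization. With median-ratio scaling 6 of the 12 rose, *Fcgr2b* and *Cd86* joining them, and 2 fell.

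Interferon and alternative activation are the signals for which genes of this family are best known, and genes of the 2 programs differed in opposite directions. Of 25 type I interferon response genes, 25 rose, with a median log2 difference of 2.68 beside -0.10 for all tested genes. The shares over all tested genes were 16.7% higher and 34.6% lower. *Ifi44* rose by 4.22, *Ifit2* by 3.76, *Ifit3* by 3.49 and *Irf7*, which encodes the transcription factor that amplifies the response, by 3.46. The count was 25 under every alternative run, and *Ms4a4c* at 4.30 lay just above the largest of them. These genes were measured in the same 6 libraries as the *Ms4a* genes, and the list was chosen with earlier results of these data known. The likeness in direction is a description.

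Of 11 tested genes of alternative activation and the resident macrophage surface, 9 fell, 1 rose and 1 did not pass, with a median log2 difference of -1.62. Of all tested genes 34.6% fell and 16.7% rose. The call for *Chil3* was lost with median-ratio scaling at -0.07, with no filter and without the variance trend at -0.17, and when replicate 1 or 2 of the controls or replicate 3 of the CITED2-deficient libraries was left out at -0.16 to -0.12. *Clec10a*, a galactose lectin, fell by 2.90, *F13a1*, the factor XIII A chain, by 2.80, *Cd163*, the hemoglobin scavenger receptor, went from 17.9 ± 0.868 to 3.43 ± 0.180 FPKM (SD, n = 3), and *Cbr2* fell by 1.90. *Folr2*, which encodes folate receptor β, was the gene that rose, by 0.74. Of the genes of the *Ms4a* cluster linked to alternative activation, *Ms4a4a* had overlapping groups and *Ms4a8a* was at the detection limit, so neither was clearly lower.

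**Figure D4:**
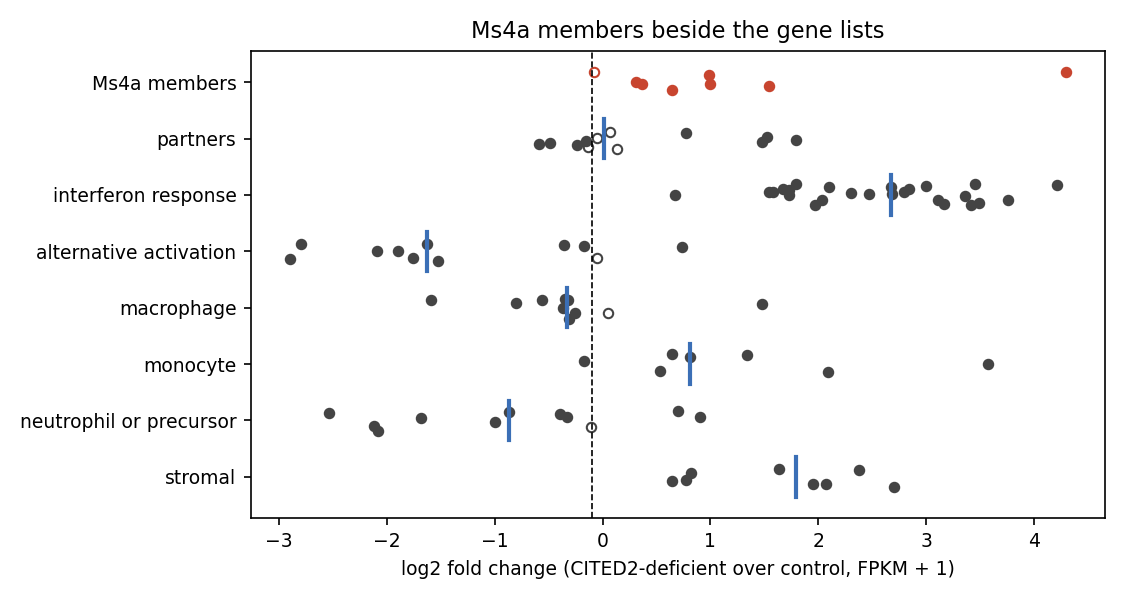
Log2 difference between CITED2-deficient and control BMDMs for every tested gene of the lists with more than 2 tested genes, 1 point per gene, filled where the adjusted p passed 0.05. A short blue bar marks the median of each list other than the *Ms4a* set, and the dashed line the median of all tested genes, -0.10. The 25 interferon genes all lie above 0, the alternative activation genes lie mostly below it, and the *Ms4a* genes spread from -0.08 to 4.30.

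Markers of other cells in which *Ms4a* genes are known were checked beside these values. Of 10 macrophage markers 8 fell and 1 rose, where 34.6% of all tested genes fell and 16.7% rose. With median-ratio scaling and with quantile normalization 8 of the macrophage markers fell and 2 rose, *Cd68* being added. Their median was -0.33, with a summed level of 12056 to 12403 FPKM in control and 10093 to 10284 FPKM in CITED2-deficient libraries. Of 7 monocyte markers 6 rose and 1 fell, with a median of 0.81, led by *Plac8*, from 4.78 ± 2.00 to 65.4 ± 4.94 FPKM (SD, n = 3), and *Ly6c2*, from 7.71 ± 1.32 to 36.0 ± 2.59 FPKM. Their summed level was 262 to 300 FPKM in control and 351 to 386 FPKM in CITED2-deficient libraries, most of it from *Chil3*, the marker that fell, whose call was lost as given above. The other 6 summed to 48.4 to 52.3 FPKM in control and 158.9 to 172 FPKM in CITED2-deficient libraries. The part of these markers in the level of *Ms4a4c*, itself known from monocytes, was not tested.

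T cell markers summed to 6.81 to 8.57 FPKM in control and 4.84 to 6.81 FPKM in CITED2-deficient libraries. Most of that was the 1 tested gene, *Cd4*, which fell from 6.85 ± 0.506 to 4.41 ± 0.591 FPKM (SD, n = 3). Of the untested genes, *Lck*, *Cd5* and *Cd3e* were higher with no overlap, but none was called with no filter. They were at 0 to 0.371 FPKM in control and 0.0623 to 0.671 FPKM in CITED2-deficient libraries. The other untested genes overlapped. The CD3 chains were at or below 0.241 FPKM in every library. NK cell markers summed to 0.120 to 0.401 and 0.516 to 0.835 FPKM, B cell markers to 8.79 to 11.3 and 9.98 to 11.3 FPKM, mast cell or basophil markers to 2.33 to 3.25 and 1.75 to 2.13 FPKM, and dendritic cell markers to 0.904 to 1.29 and 3.20 to 3.93 FPKM. Most of the last was *Dpp4*, at 1.47 to 1.94 FPKM, and *Clec9a*, at 1.01 to 1.36 FPKM. With no filter 3 dendritic cell markers and 1 NK cell marker were called higher, and 1 mast cell or basophil marker lower. In that fit 26.2% of all genes were called in either direction. All 8 tested stromal markers rose, with a median of 1.79, where 16.7% of all tested genes rose. The summed level of the stromal markers was above every control library in all 3 CITED2-deficient libraries, replicate 1 being the highest. The part of stromal cells in the *Ms4a* levels was not tested. Without that replicate the log2 difference of *Ms4a4c* was 4.34, given as a description.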

How the data were processed

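RNA of 6 BMDM libraries, 3 control and 3 CITED2-deficient, was deposited as FPKM per gene and library. The authors depleted ribosomal RNA, made stranded libraries, mapped reads to mm10 with STAR and obtained FPKM with Cuffdiff and the GENCODE annotation, with versions not given in the sources used here. FPKM already carry the library scaling and transcript length of Cuffdiff, so strongly changed genes can shift all others. The 11687 genes that averaged 1 FPKM or more were tested on log2(FPKM + 1), which understates the difference of low genes, with limma 3.58.1 in R 4.3.3, a variance trend, Benjamini-Hochberg adjustment over all tested genes and a threshold of 0.05. An exact permutation test of 3 against 3 cannot go below p = 0.1 and was not used. The steps were tested on simulated data.

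Whole fragments were recovered with the mean transcript length in GENCODE vM21. For 96.1% of the 22220 matched genes all 6 values lay within 0.02 of a whole number. *Ms4a4b* was not among them, and its fragments were taken with the shortest length that gave whole numbers, 1198 bases. The fragment numbers of *Ms4a4b* may therefore be too low. Replicates differed by more than sampling noise. Fragment numbers carry counting error only as a limit of precision. Promoters came from the RefSeq table (GRCm38.p6), and pairwise alignments were made with Biopython 1.88. The amino acid sequences were not analysed here.

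The genes of the set and all lists were chosen with earlier results of these data known, and the motifs and printed sequences after the values were seen. Named genes are the 9 genes, other *Ms4a* genes above the filter, *Cited2*, called neighbors, up to 4 called genes per list with the largest absolute difference, and the 3 genes nearest in profile to the genes with the largest rise, the lowest difference and the highest mean. Further names (*Adgre1*, *Vsig4*, *Fcgr3*, *Tyrobp*, *Trem2*, *Fcgr2b*, *Cd86*, *Folr2*, *Chil3*, *Cd68*, *Cd4*, *Lck*, *Cd5*, *Cd3e*, *Ltf*, *Mmp8*, *Dpp4*, *Clec9a*, *Ms4a1*, *Ms4a2* and *Ms4a4d*) were added after their values were seen. Alternatives were pseudocounts of 0.1 and 0.5, no filter, a mean FPKM of at least 5, median-ratio scaling, quantile normalization, no trend, a replicate block, each library left out, and limma-voom on recovered fragments.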

Additional observations from a re-analysis of the deposited data

How the results depend on the processing

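Of all tested genes 5994 were called, 32.5% of them higher. With median-ratio scaling 5186 were called, 52.0% of them higher, and with quantile normalization 5390, 42.0% of them higher. Without any 1 library 5226 to 5467 were called. The counts of *Ms4a* set genes, interferon genes, partner genes and alternative activation genes called stayed within 1.5 times their value under every alternative run. The number of other *Ms4a* genes called was 1 and became 2 with no filter, since *Ms4a4d* was then tested, and none was left to test with a mean FPKM of at least 5. The 14 neighbors called became 7 with limma-voom on recovered fragments, where 8 genes had whole fragments, and were 12 to 14 without any 1 library. No called difference of a named *Ms4a* gene or *Cited2* changed sign. *Ms4a4a*, not called at -0.08, was at 0.02 with median-ratio scaling and 0.01 without CITED2-deficient replicate 1. The differences of low genes grew with a smaller pseudocount, *Ms4a4b* to 1.00 and *Ms4a3* to -1.49 at 0.1, and that of *Ms4a3* was -1.60 with limma-voom. *Ms4a4b*, at 20 to 80 fragments per library by its fitted length, may be limited by depth.

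The labels give the groups the same replicate numbers. With the replicate block 5708 genes were called and 7 of the *Ms4a* set. Same-numbered libraries did not deviate together, with correlations of 0.014, 0.0078 and 0.040, so the numbers were not taken to pair the libraries.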
